A study of Mus musculus with 12 samples.

Results

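The microRNA (miRNA) repertoire of untreated MTEC1 cells was measured in 3 small RNA libraries, control 1 to control 3, of the 12 libraries in the series. MTEC1 is an established mouse cell line, wild type by its label, that the submitters describe as medullary thymic epithelial. The cells grew in DMEM with fetal bovine serum and antibiotics and received no PAMK, the agent the study set against them at 50 µg/ml for 12 h. The series' design text gives 6 h in culture for the untreated cells. The treated libraries and the total RNA libraries were not used. Members were the 3 control columns of the small RNA table, which list 845 small RNA entries. The labels leave unsaid whether separate cultures gave the 3 libraries, so SDs and p-values describe the spread between libraries alone, which may be technical.

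A miRNA is a short RNA cut from a hairpin precursor. The stem of the hairpin has a 5p and a 3p strand, and usually one of these arms is loaded into an Argonaute protein while the other is degraded. Bases 2 to 8 of the loaded strand, the seed, do most of the pairing with target messenger RNAs, so miRNAs with the same seed are grouped as a family. Hairpins that lie together in the genome are often transcribed as 1 precursor and then cut apart.

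The sequences of the most abundant miRNAs are shown first because the results turn on the seeds they share. They are the forms listed in the deposited table, written as DNA, 5′ to 3′, with the seed in capitals. Mature sequences in RefSeq (GRCm38.p6) were found for 17 of the 20 most abundant miRNAs, and those printed are among them. The miR-99 family, the miR-92a family and the let-7 family come in that order, followed by the miR-125 pair and miR-221 with miR-222.
miR-99b-5p: cACCCGTAgaaccgaccttgcg
miR-100-5p: aACCCGTAtatccgaacttgtg
miR-99a-5p: aACCCGTAgatccgatcttgtg
miR-92a-3p: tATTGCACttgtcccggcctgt
miR-25-3p: cATTGCACttgtctcggtctga
let-7b-5p: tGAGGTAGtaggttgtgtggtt
let-7c-5p: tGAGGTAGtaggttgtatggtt
let-7a-5p: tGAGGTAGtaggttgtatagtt
miR-125b-5p: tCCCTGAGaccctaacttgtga
miR-125a-5p: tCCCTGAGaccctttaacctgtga
miR-221-3p: aGCTACATtgtctgctgggtttc
miR-222-3p: aGCTACATctggctactgggtctc

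The deposited values are called normalized counts and summed to 5279153, 5495009 and 5122594 in controls 1, 2 and 3. They lie largely on multiples of 1 step per library, which gives an estimated 5426117 to 5977310 reads in the listed entries of each library. Reads outside these entries are not part of that estimate. Mature miRNAs of known hairpins took 602 of the 845 entries and on average 99.7% of the summed value. The other entries were 186 candidate new small RNAs, with 0.148% of the value, and 57 unannotated hairpin arms, also with 0.148%. Shares below are shares of the summed mature values of the same library, so they do not depend on how libraries were scaled. Pearson's r between the log2 values of pairs of libraries was 0.964 to 0.970 over 527 to 549 miRNAs, a description of points that share libraries.

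Control 3 stood apart in a small group of miRNAs known from blood, liver and endothelium. Over the miRNAs with at least 50 normalized counts in a library, 5 were more than 2 times higher in control 3 than in either other library, and none was in control 1 or control 2. MiR-451a, a red blood cell miRNA, had 147, 108 and 1339 normalized counts in controls 1, 2 and 3. MiR-122-5p, the main miRNA of hepatocytes, had 71.5, 45.6 and 617, and miR-144-3p, which shares a precursor with miR-451a, had 5.30, 0 and 56.0. MiR-486b-5p had 154.6, 154.4 and 399, and the fifth, miR-101a-3p, had 45.0, 23.3 and 95.2. With the endothelial miR-126a-3p and miR-126a-5p and the myeloid miR-223-3p, 7 such miRNAs, without miR-101a-3p and chosen after their values were seen, summed to 0.00720%, 0.00574% and 0.0490% of the mature total. What set control 3 apart was not tested, and the liver and endothelial values that rest on it are given per library below.

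A handful of miRNAs made up most of the mature total. MiR-99b-5p alone took 17.8% ± 1.44 and miR-92a-3p took 12.0% ± 0.580 (SD, n = 3). The 8 most abundant miRNAs made up 50% of the total and 53 made up 90%, while 436 of the 596 listed miRNAs were above 0 in all 3 libraries. The 10 most abundant held 55.0%, 56.5% and 56.2% in controls 1, 2 and 3, a mean of 55.9% ± 0.774, and the 20 most abundant held 72.5% ± 0.613.

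MiR-99b-5p, which lies in a cluster with let-7e and miR-125a, had 856819, 1047021 and 925270 normalized counts in controls 1, 2 and 3. MiR-92a-3p, the last member of the oncogenic miR-17-92 cluster, had 622271, 634501 and 647445. The ranges of the 2 did not overlap, and the mean of miR-99b-5p was 1.49 times that of miR-92a-3p. MiR-125b-5p, known for its high level in blood stem cells and for repressing p53, followed with 337211, 327506 and 280500.

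Let-7b-5p, a member of the family that rises as cells differentiate, came next with 213136, 205527 and 195069 normalized counts. Below it the order was not resolved: of the 20 highest ranks, 15 overlapped the next one over the 3 libraries, and the 5 that did not were ranks 1 to 4 and rank 20. MiR-100-5p (3.18% ± 0.158 of the total), miR-23a-3p (2.97% ± 0.0881) and let-7c-5p (2.84% ± 0.113) followed. MiR-23a-3p comes from the precursor it shares with miR-27a and miR-24. MiR-25-3p took 2.56% ± 0.116, and miR-21a-5p, which is raised in many proliferating and inflamed tissues, took 2.48% ± 0.110. MiR-29a-3p, a repressor of collagens known in the thymic epithelium for tuning its response to interferon, took 2.17% ± 0.161.

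The other 10 of the 20 held between 1.40% (let-7a-5p) and 1.91% (miR-378a-3p) each. They included miR-221-3p (1.80%) and miR-222-3p (1.74%), which repress the cell cycle inhibitor p27, and miR-140-3p (1.80%), best known from cartilage. MiR-125a-5p (1.76%), miR-99a-5p (1.59%), miR-93-5p (1.58%) and miR-30d-5p (1.43%) belong to families described below. MiR-5099, a name without an arm, took 1.63% ± 0.191. Small RNA library preparation does not capture every sequence equally well, and how far this moved the levels of one miRNA against another was not tested.

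**Figure D1:**
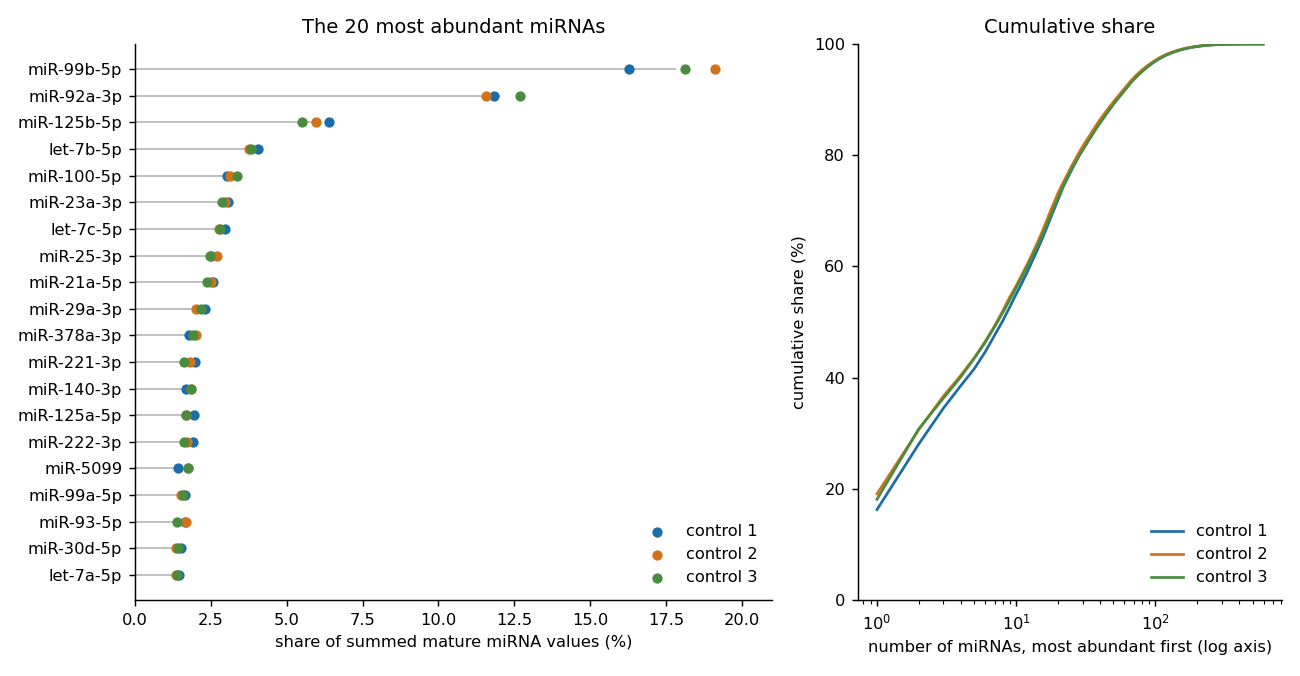
The left panel gives the share of the summed mature miRNA values (%) of the 20 most abundant miRNAs in each control library (points) with the mean (grey line); the right panel gives the cumulative share (%) against the number of miRNAs, ranked within each library, on a log axis. MiR-99b-5p and miR-92a-3p stand clear of the rest, and the 3 curves pass 50% at 8 miRNAs and 90% at 53, 52 and 54.

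Most listed miRNAs were far below these levels. The 11 miRNAs averaging 100000 normalized counts or more held 57.8% of the total, and the 57 between 10000 and 100000 held 35.6%. The 86 between 1000 and 10000 held 5.60%. The other miRNAs above 0 numbered 118, 137 and 148 in the 3 classes below, and 39 were listed at 0 in all 3 libraries. The median coefficient of variation was 6.02%, 6.78% and 6.30% in the 3 classes of at least 1000, taken from the highest down. It was 10.1% between 100 and 1000, 19.6% between 10 and 100 and 107% under 10. A listed 0 may stand for a few reads, since a library had 12 to 17 values under 5 steps and 49 to 55 at exactly that level.

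Grouped by seed, the repertoire was narrower still. The 596 miRNAs held 486 seeds, of which 4 made up 50% of the total and 31 made up 90%. The 4 most abundant families held 55.5% ± 0.734 and the 8 most abundant 67.6% ± 0.491 (SD, n = 3).

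The miR-99 seed ACCCGTA was the most abundant, with 20.98%, 23.77% and 23.06% of the total in controls 1, 2 and 3. It was carried by 3 listed miRNAs, of which miR-99b-5p held 78.8% ± 1.44 of the family, miR-100-5p had a mean of 167856 normalized counts and miR-99a-5p one of 83904. This family is known to target the growth kinase mTOR and the IGF1 receptor. The seed ATTGCAC of miR-92a came second with 14.4%, 14.4% and 15.3%, and miR-92a-3p held 81.7% ± 1.28 of it. MiR-25-3p, which targets the same messages from another cluster, added a mean of 135533 normalized counts and miR-92b-3p 6765, whereas miR-32-5p had 12.6 and miR-363-3p 3.73.

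In let-7 the leading member held the smallest share of its family among the 8. The seed GAGGTAG took 10.8%, 10.1% and 10.2% of the total over 11 listed miRNAs. Of these, let-7k was listed at 0 in control 1, 3.54 in control 2 and 2.33 in control 3. Let-7b-5p held 37.2% ± 0.182 of the family. Let-7c-5p (150058 normalized counts), let-7a-5p (73948), let-7d-5p (40923), let-7e-5p (29760.0) and let-7i-5p (25533) followed. Let-7f-5p had 12617, let-7g-5p 10587, let-7j 1274 and miR-98-5p 416. Let-7j was listed with T8G by RefSeq numbering, without which it has another seed, and its deposited sequence is that of let-7i-5p with 1 more base, so its level is uncertain.

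MiR-125b-5p held 76.8% ± 0.675 of its family, whose seed CCCTGAG took 8.37%, 7.70% and 7.19%. MiR-125a-5p had a mean of 93120 normalized counts and miR-351-5p, a rodent member, 1839. Taken with their cluster partners of the miR-99 family, the 5 hairpins miR-99a, miR-99b, miR-100, miR-125a and miR-125b summed to 30.8% ± 1.04 of the total.

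The next 4 families each held under 4% of the total. MiR-221-3p and miR-222-3p split the seed GCTACAT nearly evenly, with means of 95352 and 92041 normalized counts, and together they held 3.54% ± 0.327. MiR-23a-3p held 93.1% ± 0.0708 of the seed TCACATT, which also covers miR-23b-3p, and that family took 3.19% ± 0.0936. The miR-30 family, known for repressing mesenchymal and autophagy genes, took 2.84% ± 0.146, and miR-30d-5p held 50.3% ± 0.596 of it. The seed AAAGTGC, shared by miR-93-5p, miR-17-5p, miR-20a-5p and miR-106b-5p and known for pushing cells into S phase, took 2.57% ± 0.224. MiR-93-5p held 61.2% ± 0.764 of that family, and miR-106a-5p (37.0 normalized counts) and miR-20b-5p (1.73) were close to the bottom of the range.

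**Figure D2:**
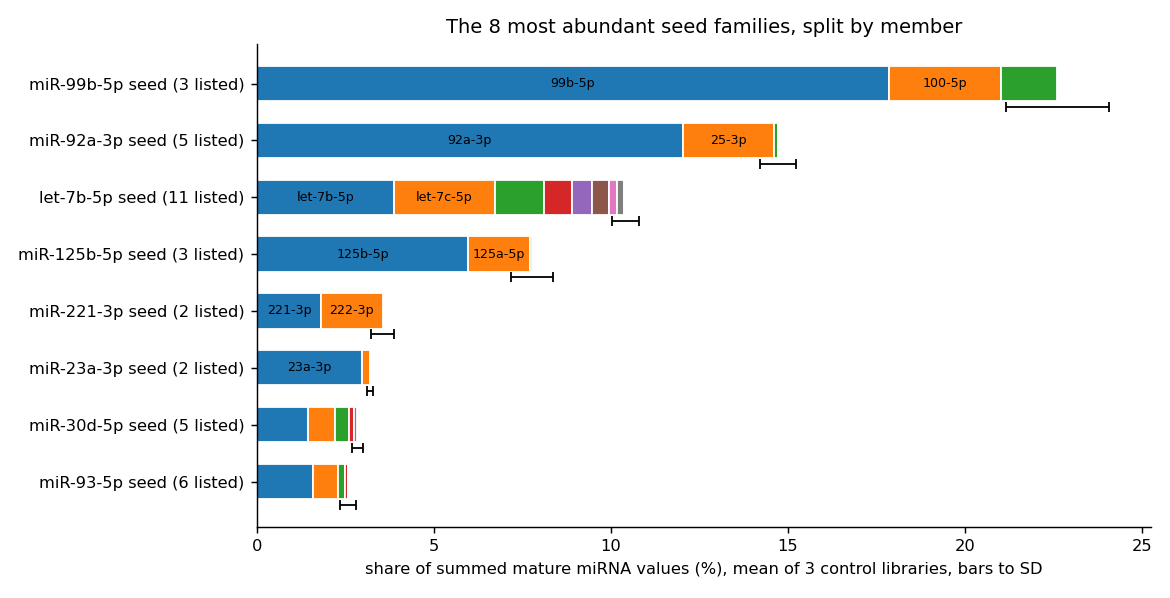
Share of the summed mature miRNA values (%) of the 8 most abundant seed families, each bar split by member, with the SD over the 3 control libraries as a black bar below the bar's end. The families led by miR-99b-5p, miR-92a-3p, miR-125b-5p and miR-23a-3p rest mostly on 1 member, while let-7 is spread over several.

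Most of the mature value was 22 bases long (75.2% ± 0.856), with 10.4% ± 0.588 at 23 bases, 8.595% ± 0.586 at 24 and 4.49% ± 0.309 at 21. By first base, 48.4% ± 1.29 of the value began with T, 27.7% ± 1.52 with C, 22.9% ± 0.270 with A and 0.997% ± 0.0280 with G. Argonaute proteins are known to favour U at that place. MiR-92a-3p was the largest entry with T and miR-99b-5p the largest with C. Of the 602 entries, 40.2% began with T, 22.6% with C, 27.6% with A and 9.63% with G.

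Both arms of a hairpin were rarely close in level. The names held 343 hairpins, with both arms listed for 181, only the 5p arm for 78 and only the 3p arm for 84. Of the 181, 158 had a summed mean of at least 20 normalized counts and were tested with limma on log2((5p + 1)/(3p + 1)), two-sided, with Benjamini-Hochberg adjustment at 0.05. The 5p arm was higher in 79 hairpins (50% of those tested) and the 3p arm in 69 (43.7%), so either arm was called in 148 (93.7%). All 148 had the same arm higher in all 3 libraries. The median ratio of the higher to the lower arm was 14.9-fold. The ratio was over 100-fold in 20 hairpins with a higher 5p arm and 8 with a higher 3p arm, and within 2-fold in 19. By level, 5p arms held 59.0% ± 0.759 of the mature total, 3p arms 38.1% ± 0.606 and names without an arm 2.92% ± 0.250. The lower arms of the tested hairpins together held 4.14% ± 0.169 of those hairpins' value. Numbered copies of a hairpin were merged, so some ratios set an arm shared by several copies against the other arm of 1 copy.

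The miR-99 family lay at the 5p end of the range. MiR-100 had 160469, 171835 and 171265 normalized counts from its 5p arm in controls 1, 2 and 3, and 21.2, 20.3 and 13.1 from its 3p arm. Its log2 ratio was 13.12 ± 0.17 (SE; limma adjusted p = 1.12e-06), the largest for the 5p arm. For miR-99a the 5p arm had 87490.1, 83379 and 80841 and the 3p arm 17.7, 15.2 and 5.60, a log2 ratio of 12.70 ± 0.31 (limma adjusted p = 4.86e-06). MiR-99b, the most abundant of the 3, kept far more of its other arm, with 9230.3, 9109 and 8369.9 from the 3p arm and a log2 ratio of 6.72 ± 0.09.

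The other hairpins furthest to the 5p side were miR-1198 (log2 ratio 10.30 ± 0.77), let-7c (10.16 ± 0.06), miR-30d (10.12 ± 0.18) and miR-181b (9.61 ± 0.22). The 3p arm of miR-1198 was listed at 0 in controls 1 and 2 and at 8.40 in control 3, so its ratio depends on the pseudocount of 1. Let-7c had 156329, 151064 and 142781 from the 5p arm and 135, 135 and 120.3 from the 3p arm. RefSeq places let-7c-5p on chromosomes 15 and 16, and the 3p value is that of let-7c-1-3p alone. MiR-181b belongs to a family that sets the sensitivity of T cell receptor signalling in thymocytes.

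At the 3p end stood miR-320, which is cut from its hairpin without the Drosha enzyme. It had 4.42, 0 and 9.33 normalized counts from the 5p arm and 26571, 27869 and 22745 from the 3p arm, a log2 ratio of -12.71 ± 0.76 (limma adjusted p = 9.69e-05), which also depends on the pseudocount. For miR-92a the 5p arm had 1095, 1146 and 949 against the 3p values above, a log2 ratio of -9.22 ± 0.09 (limma adjusted p = 1.12e-06). The arms did not overlap in any library for either hairpin. RefSeq places miR-92a-3p on chromosomes 14 and X, and the 5p value is that of miR-92a-1-5p alone.

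MiR-23a (-8.76 ± 0.11), miR-29a (-8.11 ± 0.08), miR-103 (-8.04 ± 0.13) and miR-222 (-7.75 ± 0.10) completed the 6 hairpins furthest to the 3p side. The 5p value of miR-103 is that of miR-103-2-5p alone. MiR-29a had 427, 430.4 and 379 from the 5p arm and 122314, 109653 and 111293 from the 3p arm. Its relatives behaved otherwise. MiR-29b had 367, 312 and 253 from the 5p arm and 40.6, 42.0 and 35.4 from the 3p arm, a log2 ratio of 2.93 ± 0.15 (limma adjusted p = 5.68e-05). In miR-29c the ratio of -0.60 ± 0.33 was not called (limma adjusted p = 0.147).

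Near balance stood miR-196a, miR-700, miR-350, miR-296, miR-151 and miR-877. MiR-196a, a miRNA of the Hox clusters, had 1401, 1509 and 1254 normalized counts from the 5p arm and 1386, 1454 and 1388 from the 3p arm (log2 ratio -0.03 ± 0.09, limma adjusted p = 0.789). The 2 arms changed order between libraries. RefSeq places miR-196a-5p on chromosomes 11 and 15, and the 3p value is that of miR-196a-1-3p alone. The ratio of miR-196a is therefore not that of 1 hairpin. MiR-700 (-0.07 ± 0.11) and miR-350 (-0.08 ± 0.08) were not called either, with limma adjusted p of 0.570 and 0.363. MiR-151, a miRNA of the focal adhesion kinase gene, was abundant from both arms, with 25938, 28367 and 26804 from the 5p arm and 32088, 37265 and 34816 from the 3p arm, and its 3p arm was called higher (-0.36 ± 0.07, limma adjusted p = 0.00590). MiR-296 (-0.30 ± 0.11, limma adjusted p = 0.0475) and miR-877 (-0.43 ± 0.15, limma adjusted p = 0.0460) were called by a narrow margin and were no longer called under 5 alternative settings each, among them leaving out control 1, with limma adjusted p of 0.0510 to 0.214 and 0.0534 to 0.137.

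Hairpins of 1 cluster, picked after their values were seen, sent different arms to the top. In the miR-106b-25 cluster, miR-93 was mostly 5p (log2 ratio 6.18 ± 0.10), miR-25 mostly 3p (-5.07 ± 0.07), and miR-106b had 5229, 4853 and 5138 normalized counts from the 5p arm and 19681, 21379 and 21096 from the 3p arm (-2.03 ± 0.08, limma adjusted p = 2.26e-05). The more abundant arm of miR-106b is shown here with the 5p arm, since only the 5p arm has the seed of miR-93 and miR-17.
miR-106b-5p: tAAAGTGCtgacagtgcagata
miR-106b-3p: cCGCACTGtgggtacttgctgc
miR-93-5p: cAAAGTGCtgttcgtgcaggtag

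MiR-145a was 97.0% from the 5p arm and miR-143, its neighbour, 1.26% from it. Likewise miR-34c, a p53 target, was 82.4% from the 5p arm and miR-34b 0.792% from it. Let-7d, at 62.6% from the 5p arm, had the most even pair of arms among the abundant let-7 hairpins, with 44831, 40047 and 37891 from the 5p arm and 22239, 24191 and 26836 from the 3p arm (log2 ratio 0.75 ± 0.12, limma adjusted p = 0.00392).

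**Figure D3:**
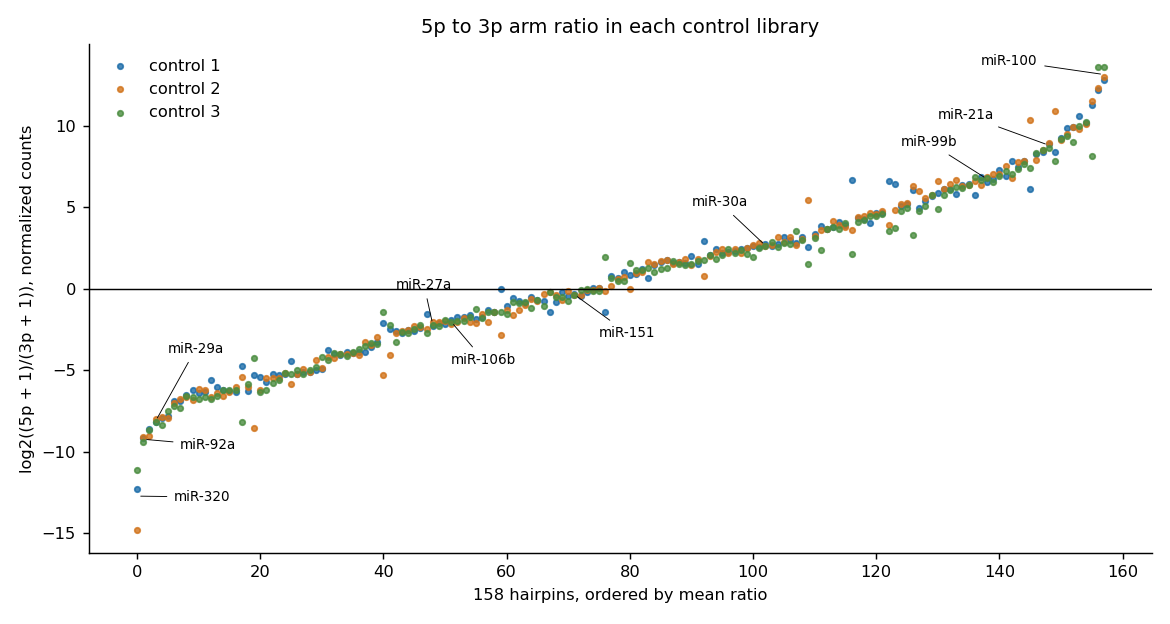
Log2 ratio of the 5p to the 3p arm, with 1 added to each normalized count, for the 158 tested hairpins in rank order; each hairpin has 1 point per control library and the line marks equal arms. Ratios run from -12.71 (miR-320) to 13.12 (miR-100), 19 hairpins lie within 2-fold, and the points of 1 hairpin lie close together except where an arm is near 0.

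Length variants were mostly changes of the 3′ end. The table marks a form by how many bases it is longer or shorter than the annotated miRNA at the 5′ or the 3′ end. Entries with a changed end numbered 274 of 602 and held 34.3%, 33.8% and 34.5% of the mature total in controls 1, 2 and 3, a mean of 34.2% ± 0.361. Entries named without any change numbered 301 and held 62.3% ± 0.493. A changed 3′ end was found in 244 entries with 34.003% ± 0.348 of the total, and a changed 5′ end in 87 entries with 3.98% ± 0.290. Entries named as longer at the 3′ end held 30.1% ± 0.388 and those named as shorter 3.87% ± 0.186. A single extra base at the 3′ end, with no other end changed, marked 82 entries, which held 25.01% ± 0.370.

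Only 6 of the 596 miRNAs had 2 entries and none had more, so the mix of lengths of 1 miRNA could be read in few cases. For miR-466f-3p, 1 of the 6, both entries are named with the same end change. No label or header says whether an entry counts 1 sequence or all forms of its miRNA. MiR-92a-3p was listed with 604093, 614964 and 628160 normalized counts for the form 1 base longer at the 3′ end, and with 18178, 19538 and 19285 for the annotated form. The entry for the longer form therefore held 97.0% ± 0.0800 of the value listed for miR-92a-3p and is the largest single entry with a changed 3′ end. Whether that is the share of this length among the molecules cannot be told from these entries. For miR-194-5p, known from intestine and liver epithelium, the entry for the form longer by 1 base held 71.6% ± 0.901 of the listed value. The 2 forms of miR-92a-3p differ in the last base alone.
miR-92a-3p, 1 base longer: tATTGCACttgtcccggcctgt
miR-92a-3p, annotated length: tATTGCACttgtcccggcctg

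The other 4 miRNAs with 2 entries were miR-374c-5p, miR-466f-3p, miR-466i-5p and miR-466p-5p. The 2 entries of miR-466f-3p had equal values in every library (2441, 2260.2 and 2403). The miR-466, miR-467 and miR-669 hairpins are near-identical copies in 1 large cluster, so levels of single members are uncertain.

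A changed 5′ end moves the seed. The 6 most abundant miRNAs whose largest form had one were miR-140-3p (94944 normalized counts), miR-5099 (86232), miR-3968 (4737), miR-345-5p (2490.1), miR-374c-5p (2461 for its main form) and miR-466f-3p. Of the 483 mature entries found in RefSeq, 60 had another seed there. Among them, let-7j (T8G), miR-378d (C6A) and miR-1946b (A8G) kept the 5′ end and differed by a substitution in the seed. The 60 entries held 2.21% ± 0.105 of the mature total. MiR-140-3p carried most of this, at 88741, 101533 and 94558 in controls 1, 2 and 3. Its deposited form starts 1 base later and ends 2 bases later than the RefSeq one, and miR-374c-5p starts 2 bases earlier. The RefSeq sequences are given after the deposited ones, with the seed of each in capitals.
miR-140-3p, deposited: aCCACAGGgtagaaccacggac
miR-140-3p, RefSeq: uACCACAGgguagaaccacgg
miR-374c-5p, deposited: aTATAATAcaacctgctaagtg
miR-374c-5p, RefSeq: aUAAUACAaccugcuaagug

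Among the substitutions, 1 kind was repeated more often than any other. Of 80 entries named with 1 substitution, mature miRNAs and unannotated arms together, 23 (28.8%) had G to T at position 9, counted from the 5′ end. The next most frequent pair of position and change had 4 entries, and position 9 had no other change. Of the 23, 20 were above 0 and 6 averaged 10 normalized counts or more. By level the 20 mature entries among the 23 held 3.19% ± 0.158 of the mature total, nearly all of it miR-100-5p, and 0.00891% ± 0.000984 without it. This kind was singled out after the values were seen.

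MiR-100-5p was listed with G9T as its sole form, at 160469, 171835 and 171265 normalized counts, as given for its 5p arm. MiR-148a-5p (285) and miR-1945 (30.1), also with G9T, were far lower. Each is shown as deposited and then as in RefSeq, with base 9 in capitals.
miR-100-5p, deposited: aacccgtaTatccgaacttgtg
miR-100-5p, RefSeq: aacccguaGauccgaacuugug
miR-148a-5p, deposited: aaagttctTagacactccgact
miR-148a-5p, RefSeq: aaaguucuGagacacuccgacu
miR-1945, deposited: tcttcgcgTgtactgtcgggac
miR-1945, RefSeq: ucuucgcgGguacugucgggac

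Most miRNAs with G at that place kept it. Among the entries with the 5′ end of RefSeq and G as base 9 there, 16 of 89 were listed with T and 73 with G. Among those averaging 100 normalized counts or more, 2 of 40 were listed with T, which are miR-100-5p and miR-148a-5p. Where RefSeq has A or C as base 9, 0 of 80 and 0 of 111 differed, and none differed where it has T. MiR-99b-5p, miR-99a-5p and miR-23a-3p, all with G as base 9, were listed without it changed. In 2 entries the first base itself was shifted, miR-582-3p with G10T and miR-5116 with G8T by RefSeq numbering, and both changes fell on base 9 of the deposited sequence. The source of this change, in the cells or in the reads, was not tested.

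**Figure D4:**
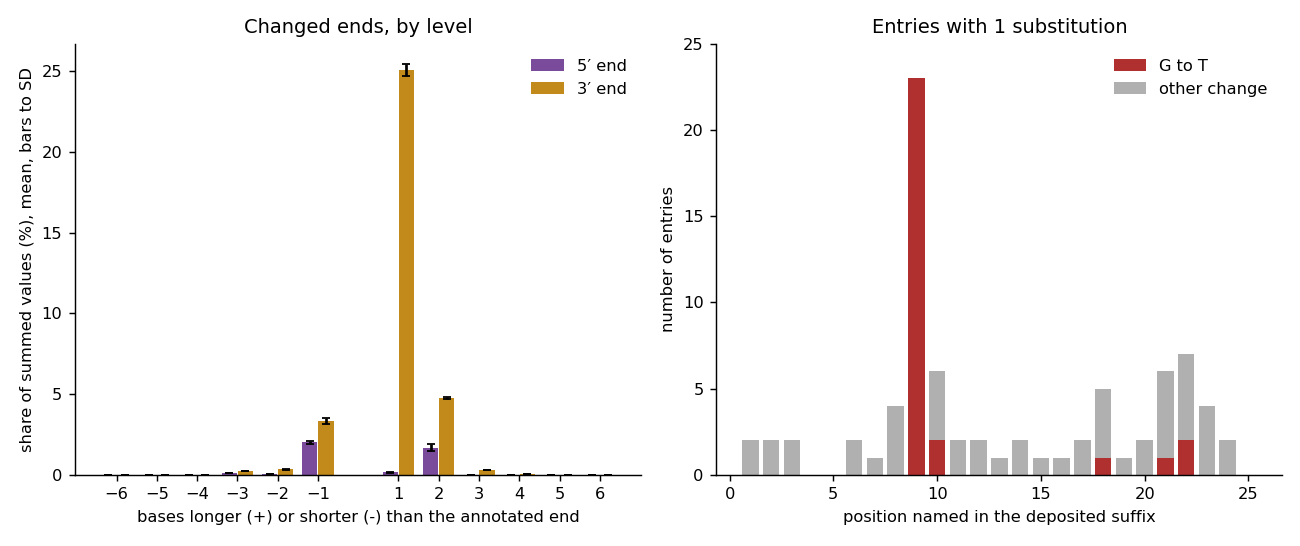
The left panel gives the share of the summed mature values (%) in forms longer or shorter than the annotated 5′ or 3′ end, as the mean of the 3 control libraries with the SD; the right panel counts the entries with 1 substitution by the position in their deposited name. The bar for 1 extra base at the 3′ end is by far the highest on the left, and the 23 G to T entries at position 9 stand out on the right.

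The label of the line was set against lists of miRNAs that mark tissues, chosen with earlier results of these data known. Over all 400 listed hairpins and names without an arm, 45% averaged 100 normalized counts or more and the median was 66.2, both arms summed. Of the 11 epithelial members 7 were listed, with 2 of these 7 at that level and a median of 11.5. The list of fibroblast, smooth muscle and mesenchymal miRNAs had all 10 members listed, with 10 at that level and a median of 11099.6. In a bulk sample, a low level in every cell and a higher level in few cells cannot be told apart.

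The miR-200 family, which keeps the epithelial state by repressing Zeb1 and Zeb2, was low. MiR-200c, its highest listed member and above the median of all hairpins, had 121, 93.2 and 82.1 normalized counts in controls 1, 2 and 3, miR-200b had 13.2, 11.1 and 10.3, and miR-200a was listed at 0 in all 3. MiR-141, miR-429, miR-205 (a miRNA of stratified epithelium and thymic epithelial cells) and miR-203 were not listed among the entries used here. The highest members were miR-194 (836, 787 and 824) and miR-192 (197, 209 and 224), which mark intestine, liver and kidney epithelium. The whole list summed to 1176, 1109.9 and 1140.0 normalized counts, or 0.0216% ± 0.00120 of the mature total.

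The lowest value of the mesenchymal list in any library was 481 normalized counts (miR-196b, control 3), and the list summed to 137747, 142204 and 129165, or 2.58% ± 0.0450 of the total. MiR-10a, which lies in the HoxB cluster, was the highest with 50776, 51965 and 46683. MiR-214, which shares a precursor with miR-199a-2, had 20996, 24057 and 22729. MiR-143, the smooth muscle miRNA, had 17145, 17599 and 17399, and its partner miR-145a had 16990.1, 15208 and 12008. MiR-10b (mean 14057), miR-199a (8142), miR-199b (3768), miR-196a (2797), miR-152 (2542) and miR-196b (548) completed the list. For miR-199b the 3p arm averaged 3730 and the 5p arm 37.9, whereas miR-199a was listed from its 5p arm only. Whether the 3p value belongs to miR-199b or miR-199a was not tested, so the level of miR-199b is uncertain. The epithelial list lay below the level of all hairpins, apart from miR-200c, miR-192 and miR-194, and the mesenchymal list above it. In this the levels of these lists run against the epithelial part of the label. The haematopoietic and neural lists, with medians of 1756 and 106, also lay above the 66.2 of all hairpins. A median above it is therefore not particular to the mesenchymal list, whose miR-10a and miR-196a are Hox cluster miRNAs. The lists were chosen with earlier results of these data known, so they are no independent test of what the cells are. The line is called by its name only.

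The other tissue lists varied. The haematopoietic list had 8 of 9 members listed, with 5 of these 8 averaging 100 normalized counts or more and a median of 1756. That median is over all 3 libraries and depends on miR-451a, which was higher in control 3. The haematopoietic list summed to 70501, 70887 and 63166 in controls 1, 2 and 3. The neural list had 6 of 8 listed, with 3 of these 6 at that level and a median of 106. Of the haematopoietic list, miR-142a, the pan-leukocyte miRNA, was not listed among the entries used here. MiR-150 had 10.6, 0 and 11.2 normalized counts in controls 1, 2 and 3, and miR-223 had 0, 0 and 25.2. That list still held 1.29% ± 0.0510 of the total, through miR-181a (mean 34746), miR-181b (16644), miR-146a (13246) and miR-155 (2980.4), which many cell types outside blood express. The muscle list rested on miR-206, an abundant miRNA of skeletal muscle, with 6062, 7381 and 6393, while miR-133b, its cluster neighbour, was listed at 0. The neural list summed to 0.0623% ± 0.000422, led by miR-128 (1706) and miR-218 (1364), with miR-9 at 4.40 and miR-138 at 2.55.

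The liver and endothelial lists rested on control 3. MiR-122 had a mean of 58.6 in controls 1 and 2 against 245 over all 3 libraries, and the values in controls 1, 2 and 3 were 71.5, 45.6 and 617. MiR-126a had 0, 6.08 and 63.4 in those libraries, with a mean of 3.04 in controls 1 and 2 against 23.2 over all 3. No member of the embryonic stem cell list (miR-290 and miR-302 clusters) was listed, and of 36 miRNAs of the imprinted Dlk1-Dio3 region 11 were listed, the highest being miR-541 (14.4) and miR-127 (13.2). MiR-182 of the sensory miR-183 cluster was listed at 0, and miR-96 at 0, 0 and 13.1.

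**Figure D5:**
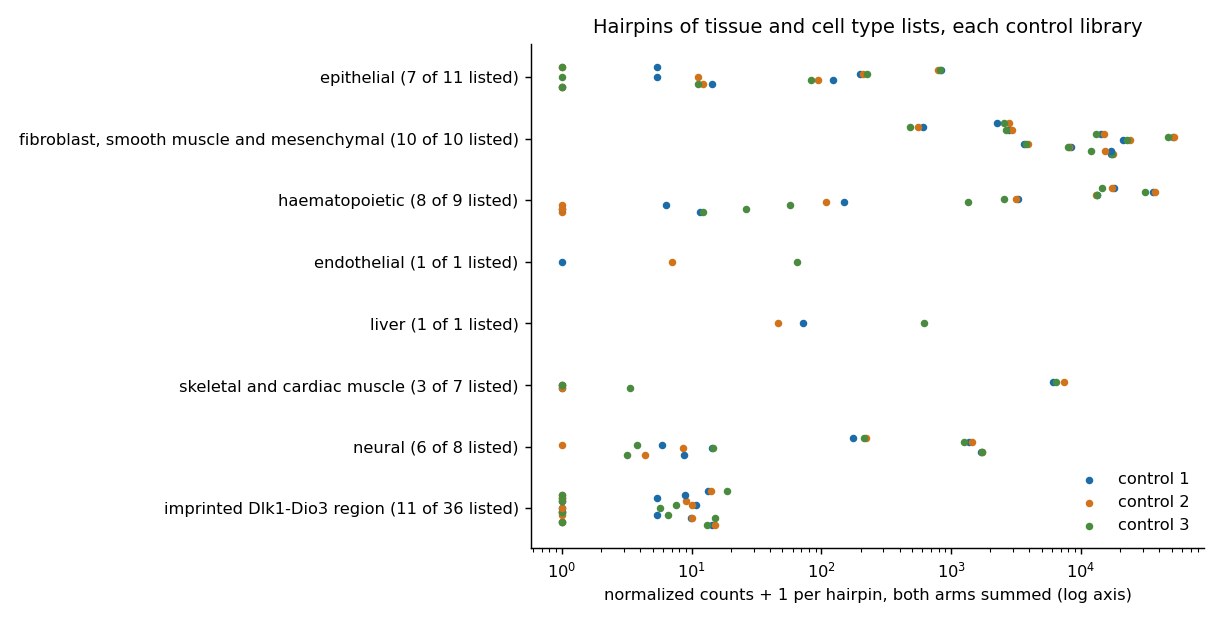
Normalized counts plus 1 (log axis), both arms summed, of the listed hairpins of 8 tissue and cell type lists, with 1 point per control library; 1 on the axis is a listed 0. The mesenchymal hairpins lie at 481 and above, the epithelial ones at 836 and below, and control 3 lies above the others for miR-122 and miR-126a.

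Families with known roles in growth, stress and immunity differed in which member led. In the miR-17-92 cluster, whose 6 members come from 1 primary transcript, miR-92a had a mean of 635803 normalized counts, miR-17 of 43703, miR-20a of 10147, miR-18a of 2245, miR-19b of 390.4 and miR-19a of 42.6. MiR-92a is also encoded by a second cluster on the X chromosome. Of its other members, miR-106a, miR-20b and miR-363 summed to 39.9, 47.1 and 40.4 in controls 1, 2 and 3. RefSeq places 6 genes in that cluster, so that sum is not its whole output. Most of that sum is miR-106a (mean 37.0), whose deposited sequence, with A10T by RefSeq numbering, is that of miR-17-5p with 1 more base, so its level is uncertain too. The miR-19 members were the lowest of miR-17-92, and the miR-19b value merges numbered copies that need not all lie in that cluster. Of the miR-29 family, miR-29a had 114832, miR-29b 349.8 and miR-29c 153. The miR-106b-25 cluster held 4.73% ± 0.224 of the total, the miR-23-27-24 clusters 4.21% ± 0.107 and the miR-15/16 group, repressors of Bcl2 and cyclins, 1.61% ± 0.203. MiR-15b led that last group with 71181, 55336 and 63011.

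In the miR-34 family, miR-34c (27447) and miR-34b (19466) were far above miR-34a (1342) and miR-449a (69.0). Of the immune response list, miR-21a had a mean of 131484, miR-146a, a brake on NF-kB signalling, 13246, miR-146b 3325 and miR-155 2980.4. MiR-210, the hypoxia miRNA, had 11412, 12794 and 10960.6. Of the miRNAs studied in thymic epithelium, miR-29a and miR-181a (35614, 37267 and 31358) were abundant, miR-195a had 1359, 1287 and 1326, and miR-449a 69.8, 58.7 and 78.4.

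Members of 1 genomic cluster often differed in level. RefSeq places 26 clusters of hairpins no more than 10000 bases apart with 2 or more single-copy members listed, counting the larger arm of each. In the 12 with each member at 100 or more, the highest member was 1.04 to 57.6 times the lowest, with a median of 4.81. MiR-221 and miR-222 were the closest pair at 1.04-fold, followed by miR-27b and miR-23b at 1.10-fold, miR-34c and miR-34b at 1.17-fold, and miR-143 and miR-145a at 1.20-fold. MiR-99b was 31.7 times let-7e, its neighbour, and in the cluster of miR-17 the ratio of miR-17 to miR-19a was 882. These clusters were taken after the values were seen and no test was made.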

How the data were processed

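Small RNA was sequenced from total RNA of MTEC1 cells with TruSeq small RNA libraries on a HiSeq instrument, per the labels' protocols. The ACGT101-miR program removed adapters, junk reads, repeats and other RNA families (rRNA, tRNA and the like), per the labels. The deposited signal carries the name normalized counts, per the file headers. For the normalization, aligner, miRNA annotation and genome build, nothing is given in the sources used here. Of each library's values under 200 steps, 89.1% to 90.5% were whole multiples of 1 step within 0.02, too few for a count test, and none was made. Intervals for counting error were not computed, since the reads behind each value are only estimated.

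Of the table's columns, the 3 control columns were used, taken by name. Entries were grouped by their base name, without the suffix for the form, forms of an arm were summed and numbered copies of a hairpin were merged. Seeds were read as bases 2 to 8 of the deposited sequence. Arms were tested in R 4.3.3 by limma 3.58.1, as an intercept with an intensity trend, a pseudocount of 1 and a summed mean of at least 20 normalized counts. The fit was tested on simulated ratios. Folds are on the log2(value + 1) scale and understate ratios of low arms. Shares have no test, as there is 1 group.

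MiRNAs and lists were chosen with earlier results of these data known. The rule named the 20 most abundant miRNAs, the 8 most abundant seed families and the 6 miRNAs with most entries. It also named the 6 highest, 6 lowest and 6 most balanced arm ratios among hairpins with a summed mean of at least 100. The rule further took 6 miRNAs with a changed 5′ end, up to 6 members of each list and some fixed miRNAs. Names outside it are said to be chosen after their values were seen. Chi-square per degree of freedom between pairs of libraries was 76.3 to 127 over 275 entries, so no library was a copy of another. Mature sequences and cluster positions came from RefSeq (GRCm38.p6), in which 483 of the 602 mature entries were found by name.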

Additional observations from a re-analysis of the deposited data

How the results depend on the processing

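The 20 miRNA shares and 8 seed family shares were recomputed under some of the alternatives. These were all entries in the total, values under 10 set to 0 and 1 library left out in turn. The shares moved by no more than the SD between libraries, in 100 and 40 comparisons. Leaving out 1 of 3 libraries cannot move a mean by more than that SD, so those comparisons could not come out otherwise. The other settings were not applied to these shares. Leaving out 1 library in turn gave 55.6% to 56.3% for the 10 most abundant miRNAs, 22.02% to 23.41% for the largest seed family, 446 to 467 miRNAs above 0 in each library left, and 76 to 77 hairpins with a higher 5p arm against 64 to 65 with a higher 3p arm. Asking for 50% of the total in place of 90% took 8 miRNAs in place of 53, by construction. With values under 10 set to 0, 3 miRNAs in place of 6 had more than 1 entry, and the cause was the removal of low entries. Asking for a 10-fold ratio left 46 hairpins with a higher 5p arm and 39 with a higher 3p arm. Over the other settings of the arm test, 132 to 158 hairpins were called, and the number tested differed between some settings. The lowest count, 132, was out of 137 tested with a summed mean of at least 100. The highest, 158, was out of 170 tested with the unannotated arms added. Of the named arm ratios, that of miR-196a changed sign without control 3 (a log2 ratio of 0.0346, with -0.0468 without control 1 and -0.0654 without control 2), and the cause was not tested. Without control 3, 2 hairpins in all had the other arm higher, and neither was called. A list share moved in 2 of 120 comparisons, the neural list to 0.0632% with all entries and the Dlk1-Dio3 list to 0.000615% with values under 10 set to 0. Here too, comparisons with 1 library left out could not count as moved. No paired analysis was possible because 1 group was described and nothing was compared between groups. Values under about 10 normalized counts are limited by depth.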

Other observations

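The entries outside the mature miRNAs of known hairpins were few in value. The 57 unannotated hairpin arms took 0.133% to 0.169% of the summed value per library, and the 186 candidate new small RNAs took 0.136% to 0.169%.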
